A study of Mus musculus with 2 samples.

Results

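Nuclei that carry transcripts of Col22a1, the chain of collagen XXII, were described in 2 mouse calf muscles. A nucleus was taken as a Col22a1 nucleus where it held 3 or more unique molecular identifiers (UMIs, counted transcript molecules) of Col22a1. This rule found 196 of 16530 nuclei, 60 of 7374 in gastrocnemius and 136 of 9156 in plantaris. They made up 0.814% of gastrocnemius nuclei (95% exact Clopper-Pearson interval 0.621 to 1.05) and 1.49% of plantaris nuclei (1.25 to 1.75). They were compared, within each muscle, with reference myonuclei that held 0 Col22a1 UMIs and 10 or more UMIs of the fast and slow myosin heavy chains, counting Myh1, Myh2, Myh4 and Myh7 together. There were 3573 reference myonuclei in gastrocnemius and 4291 in plantaris.

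Skeletal muscle fibres are long cells with many nuclei, and nuclei at the fibre tip transcribe genes that other nuclei of the same fibre do not. At the tip, the myotendinous junction, the membrane is folded and bound through integrins and the dystrophin complex to a basement membrane rich in laminin, which carries force to the tendon. Collagen XXII is a known product of muscle fibres at this site, and tenocytes are the tendon cells on its other side.

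Both muscles came from wild-type C57BL/6 mice aged 12 weeks, with no treatment given in the labels, and each was profiled as 1 single-nucleus library of nuclei stained with the DNA dye propidium iodide and sorted. The labels do not give the number or sex of the mice. With 1 library per muscle, muscle, animal and library cannot be told apart, and nuclei are not replicates, so no test was run and no value has a replicate check. All intervals cover counting error only. The Col22a1 count chose the nuclei, so every ratio of Col22a1 nuclei over reference myonuclei is a description of the chosen nuclei.

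The 60 gastrocnemius Col22a1 nuclei held 252179 UMIs in all, with a median of 3923.5 per nucleus, and the 136 of plantaris held 700494, with a median of 3951. The reference medians were 3431 and 3978. Across the series 17 barcodes occurred in both libraries. Of these, 2 belonged to a Col22a1 nucleus in 1 of the libraries and 0 to a Col22a1 nucleus in both. No doublets were removed, and 1 Col22a1 nucleus of gastrocnemius and 4 of plantaris held more than 15000 UMIs.

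Most of the chosen nuclei were myonuclei by their transcripts, and a minority were mixed or were not. The share of a nucleus's UMIs that came from Ttn, Neb, Ryr1 and Dmd, which encode giant sarcomere proteins, the calcium release channel and dystrophin, had a median of 7.69% in gastrocnemius and 6.51% in plantaris Col22a1 nuclei. In reference myonuclei it was 8.11% and 6.94%. A myonuclear cut was set, after the data had been seen, at the 1st percentile of the reference myonuclei, 4.44% in gastrocnemius and 3.29% in plantaris. Above it lay 56 of 60 and 121 of 136 Col22a1 nuclei.

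The 4 nuclei of gastrocnemius and 15 of plantaris below the cut carried connective tissue transcripts. Ebf1, a transcription factor of mesenchymal cells, stood there at 4668 counts per 1000000 UMIs of the class (CPM) in gastrocnemius and 4582 in plantaris, against 181 and 361 in the nuclei above the cut. Thbs4, a matrix protein of tendon, stood at 683 and 1098 CPM below the cut and at 4.11 and 38.9 above it. A tenocyte marker was seen in 2 of 4 and 15 of 15 nuclei below the cut, and in 2 of 56 and 9 of 121 above it. Genes described below for the other Col22a1 nuclei were sparse in the 15 plantaris nuclei, where Kcnh7, Slc24a2, Erbb4, Thsd7b and Prom1 gave 0 UMIs, Clstn2 gave 3 and Tigd4 gave 1. The 4 gastrocnemius nuclei did hold some, with 11 UMIs of Kcnh7, 8 of Erbb4, 4 of Slc24a2, 1 of Thsd7b and 1 of Tigd4, all in 2 of the 4. Muscle transcripts were also seen in part of the plantaris minority, where 3 of 15 nuclei held 10 or more Myh UMIs. The highest Ttn count there was 216 UMIs, and myonuclear shares had a median of 0.43% and ran up to 3.02%. The data go against the label of myonuclei for most of the plantaris minority. They are mixed for the rest of it and for that of gastrocnemius, and the chosen set is called the Col22a1 nuclei here.

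Summed levels of tenocyte and mesenchymal markers were lower without this minority in both muscles. The 8 tenocyte markers summed to 55.5 CPM in gastrocnemius Col22a1 nuclei and to 244 in plantaris, against 10.0 and 26.4 in reference myonuclei, with 5 and 1 of the 8 at 0. In the nuclei above the cut the sums were 12.3 and 70.0. The 9 mesenchymal markers summed to 198 and 384 CPM, against 101 and 222, and to 86.3 and 250.4 above the cut. Tnmd, a defining gene of tenocytes, had 0 UMIs in gastrocnemius and 9 in plantaris, all 9 below the cut. The 6 endothelial markers summed to 15.9 and 7.14 CPM, against 3.92 and 9.53 in reference myonuclei, and the 5 macrophage markers to 47.6 and 87.1, against 26.3 and 37.7. Above the cut the endothelial sums were 16.4 and 7.77 CPM and the macrophage sums 49.3 and 27.99, so of these 4 values the plantaris macrophage sum alone was lower without the minority. Chrne, the adult subunit of the acetylcholine receptor at the neuromuscular synapse, had 0 UMIs in gastrocnemius Col22a1 nuclei and 1 in plantaris.

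**Figure D1:**
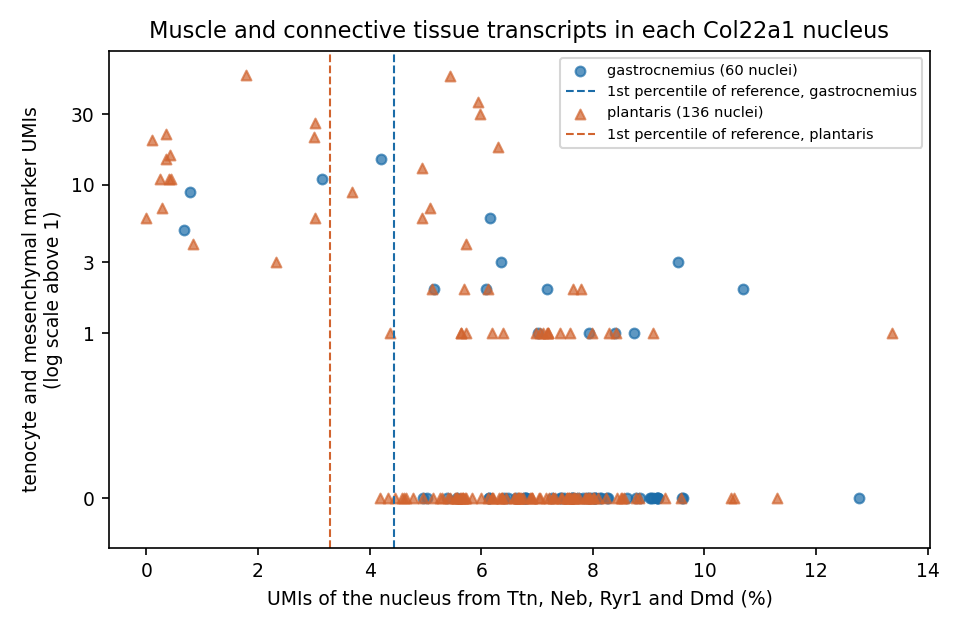
Each point is 1 of the 196 Col22a1 nuclei, with the percent of its UMIs from Ttn, Neb, Ryr1 and Dmd on the x axis and the summed UMIs of tenocyte and mesenchymal markers on the y axis (log scale above 1). Dashed lines mark the 1st percentile of reference myonuclei, 4.44% in gastrocnemius and 3.29% in plantaris, and the nuclei left of them hold 3 or more of the marker UMIs.

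The threshold split a continuous range of counts. In gastrocnemius 86 nuclei held 1 Col22a1 UMI, 20 held 2 and 7 held 3, and in plantaris 126, 39 and 19 did. The median Col22a1 nucleus held 6 UMIs in each muscle, and the highest held 35 and 46. The summed level of Col22a1 was 1931 CPM in gastrocnemius and 1744 in plantaris. A background level was read from nuclei that should lack the gene. These held 3 or more UMIs of macrophage or endothelial markers, 0 of the tenocyte markers apart from Chodl, and a myonuclear share below the cut. Nuclei with 3 or more Col22a1 UMIs were left out of this class, which limits its Col22a1 count in advance. Of 134 and 267 such macrophage- or endothelium-marked nuclei, with median depths of 971.5 and 1096 UMIs, 2 and 0 held a Col22a1 UMI.

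Nuclei just outside the threshold held more Lama2 than reference myonuclei, and more of the connective tissue genes as well. Lama2, the main laminin alpha chain of the muscle basement membrane, stood at 235 CPM in gastrocnemius reference myonuclei, at 1261 in nuclei with 1 Col22a1 UMI, at 4957 with 2 and at 7358 with 3. In plantaris these levels were 284, 1290.3, 3507 and 4277 CPM. Median depths in the same order were 3431, 1481.5, 2535.5 and 2069 UMIs in gastrocnemius and 3978, 3266, 2580 and 3047 in plantaris, and the part of depth was not tested. In the nuclei with 1 Col22a1 UMI, Ebf1 stood at 913 and 933 CPM against 133 and 310.4 in the reference, Itgbl1 at 338 and 181 against 9.16 and 25.9, and Thbs4 at 137 and 101 against 5.69 and 8.80. Tenocyte-marked nuclei, defined below, held Lama2 at 2494 and 1738 CPM, and the part of such nuclei in these levels was not tested. Slc24a2, a sodium, calcium and potassium exchanger, rested on 1 UMI in the 86 gastrocnemius nuclei with 1 Col22a1 UMI and 0 in the 126 of plantaris. It rested on 6 UMIs (107 CPM) in the 20 gastrocnemius nuclei with 2 Col22a1 UMIs and on 2 UMIs (118 CPM) in the 7 with 3. In plantaris it stood at 152 CPM with 2 and at 304 with 3. Nuclei with 10 or more Col22a1 UMIs had 881 and 535 CPM of Slc24a2.

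Kcnh7, a potassium channel, was carried by few nuclei at the low steps and by more at the high ones. In gastrocnemius it had 0 UMIs in the nuclei with 2 Col22a1 UMIs, where the upper interval end was 65.5 CPM, and 1 UMI in those with 3. It stood at 2020.5 CPM in those with 4 to 5, from 8 of 20 nuclei. In plantaris it stood at 212 CPM with 2 and at 1185 with 3, but all 74 UMIs of the latter lay in 1 of 19 nuclei. With 10 or more Col22a1 UMIs it was seen in 7 of 12 and 14 of 48 nuclei. Agbl1, a carboxypeptidase that trims glutamate chains from tubulin, was at 7007 CPM in plantaris reference myonuclei and at 5415, 3879 and 1634 with 1, 2 and 3 Col22a1 UMIs. In gastrocnemius it was at 2018 in the reference and at 2628, 782 and 1354, so the nuclei with 1 UMI stood above the reference there.

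**Figure D2:**
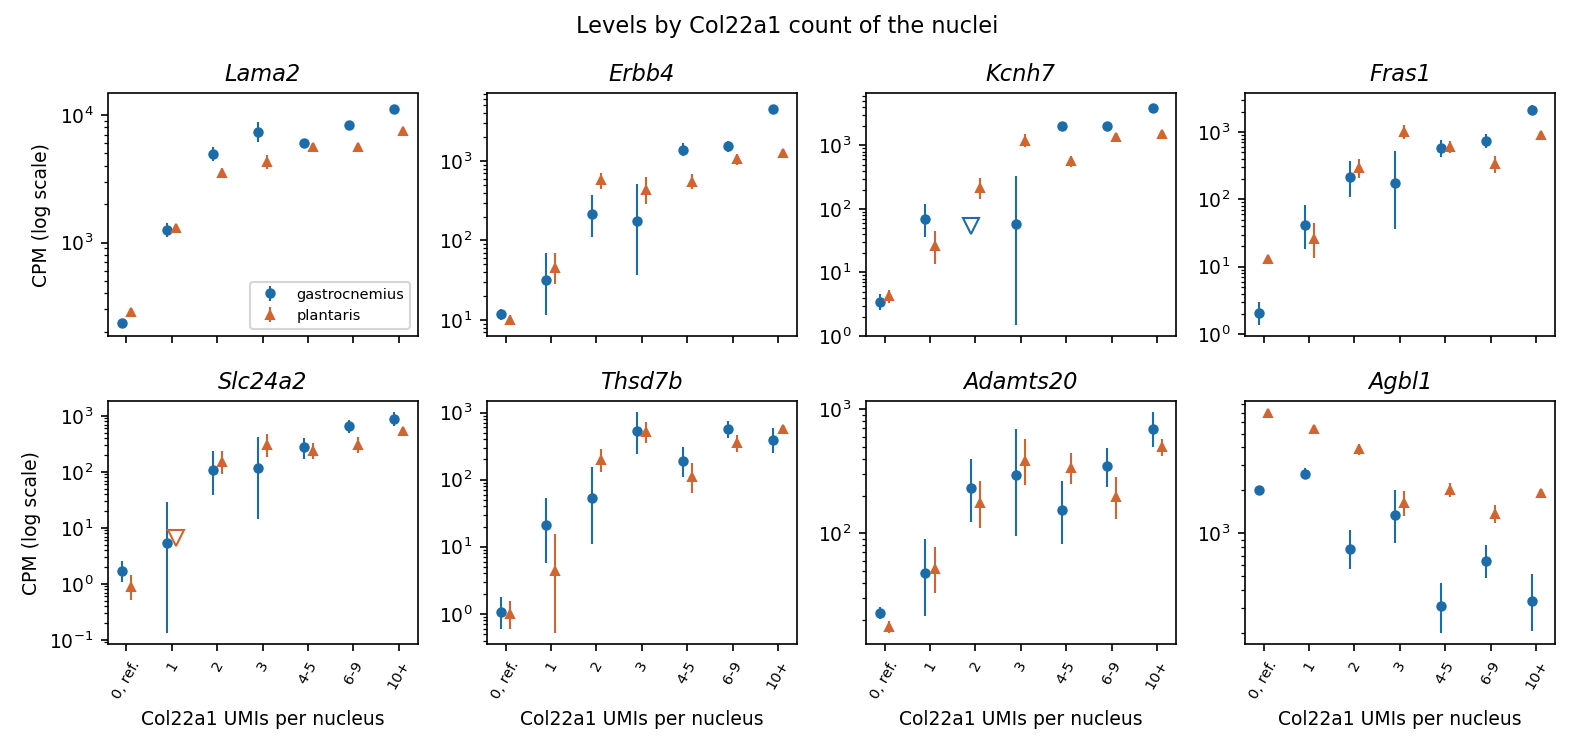
Level (CPM, log scale) of 8 genes in nuclei grouped by their Col22a1 UMIs, with gastrocnemius as circles and plantaris as triangles, bars as 95% exact Poisson intervals and open triangles at the 3-count floor where no UMI was seen. Lama2 is above its reference level in the nuclei with 1 Col22a1 UMI, at 1261 and 1290.3 CPM, where Ebf1 (913 and 933 CPM) and Thbs4 (137 and 101 CPM), which are not drawn, were above theirs too, and Agbl1 lies lower in nuclei with 3 or more.

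A gene counted as measured where the mean of its CPM in Col22a1 nuclei and in reference myonuclei reached 20 in both muscles, and as higher or lower where the CPM differed by 2-fold or more the same way in both. Of 4601 measured genes 283 (6.15%) were higher in Col22a1 nuclei. A total of 71 (1.54%) were lower. Counting only genes whose whole interval lay past 2-fold gave 178 (3.87%) higher and 13 (0.283%) lower. In single muscles, 9.5% of genes were higher and 6% lower in gastrocnemius, and 7.41% were higher and 3.24% lower in plantaris. Of the genes higher in gastrocnemius 64.8% were also higher in plantaris, and of those higher in plantaris 83.0% were also higher in gastrocnemius. The median log2 ratio over all measured genes was -0.011 and -0.024. Since the rule used this contrast, these shares are descriptions. With the nuclei above the cut, 233 of the 283 were still called higher and 64 of the 71 lower. Of the 283 genes, 150 had a reference level under 20 CPM in at least 1 muscle, so the level in Col22a1 nuclei could carry them past the minimum. The counts of the gene lists below carry the same limit.

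**Figure D3:**
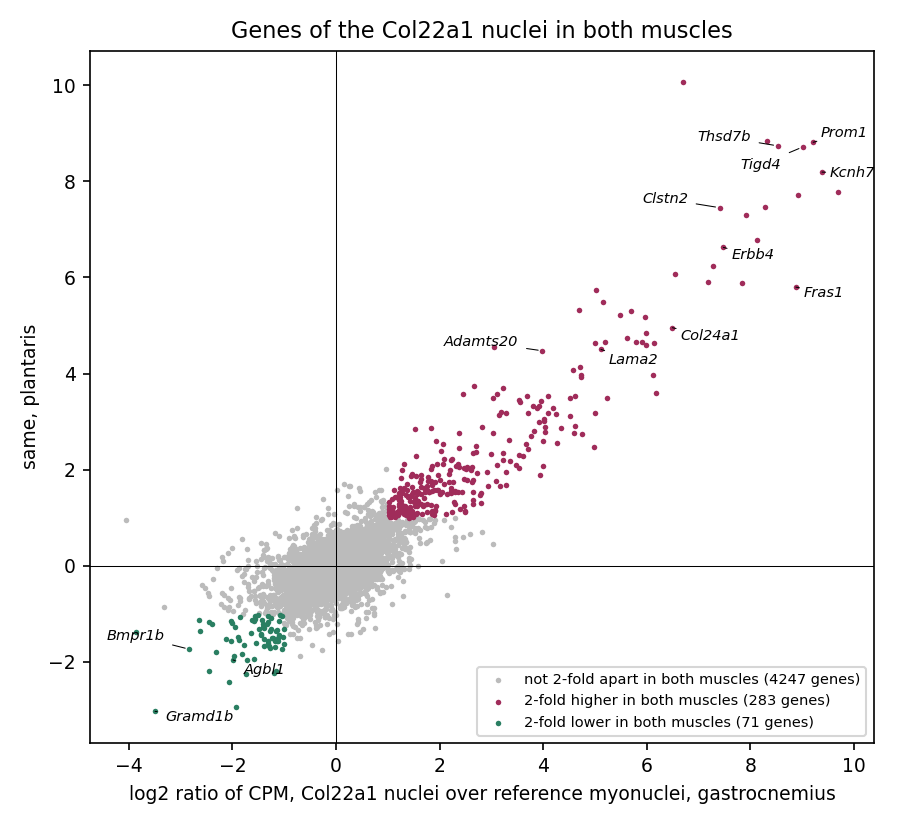
Log2 ratio of CPM in Col22a1 nuclei over reference myonuclei for the 4601 measured genes, gastrocnemius on the x axis and plantaris on the y axis, 1 point per gene. Genes 2-fold higher in both muscles (283) reach ratios above 8, and those 2-fold lower in both (71) lie at the lower left, with Gramd1b at -3.49 and -3.03.

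Of 6 genes listed as junction markers beside Col22a1, and not used by the rule, all stood higher in the Col22a1 nuclei of both muscles. The 5 that were measured passed 2-fold, beside 6.15% of all measured genes. Slc24a2, Tigd4, Adamts20 and Itgbl1 had reference levels under 20 CPM in gastrocnemius, plantaris or both. The Col22a1 nuclei thus carried these past the minimum, and their calls were partly fixed in advance. Slc24a2 was at 543 CPM against 1.69 in gastrocnemius (log2 ratio 8.33, 7.67 to 9.05) and at 404 against 0.886 in plantaris (8.83, 8.13 to 9.63). Adamts20, a secreted metalloprotease, was at 361 CPM against 22.9 (log2 ratio 3.98) and at 391 against 17.6 (4.47). Maml2, a coactivator of Notch signalling, was at 1225 CPM against 110.3 (3.47) and at 1086 against 253 (2.10).

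Tigd4, a gene derived from a transposable element, was at 119 CPM in gastrocnemius Col22a1 nuclei and had 0 UMIs in the 3573 reference myonuclei, so it was at least 515-fold higher against a floor of 3 counts. In plantaris it was at 65.7 CPM against 0.156, from 3 reference UMIs (log2 ratio 8.71, 7.08 to 11.04). Ankrd1, a titin-binding protein induced by stretch, was at 75.3 CPM against 0.0769, from 1 reference UMI (log2 ratio 9.94, 7.28 to 15.31), and at 34.3 against 0.156, from 3 (7.78, 6.06 to 10.15). It was seen in 6 of 60 and 13 of 136 nuclei, and lay below the minimum for a measured gene in plantaris.

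Itgbl1, an integrin-like secreted protein, stood apart from the other junction markers. It was at 47.6 CPM against 9.16 and at 176 against 25.9. In the nuclei above the myonuclear cut it stood at 12.3 and 34.2 CPM, and in those below it was at 1025 and 1760. Tenocyte-marked nuclei outside the Col22a1 set held 3280 and 1986 CPM of Itgbl1.

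A second set of genes listed for the junction shared this dependence. All 3 of its measured genes, Ebf1, Col6a3 and Col1a2, were 2-fold higher with all Col22a1 nuclei, beside 6.15% of all measured genes. Above the cut 1 was measured and 0 were called, with median log2 ratios of 0.45 and 0.22.

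The number of nuclei with a transcript was also higher for the marker genes. Slc24a2 was seen in 45% and 31.6% of Col22a1 nuclei, in 0.504% and 0.350% of reference myonuclei, and in 0% and 0.749% of macrophage- or endothelium-marked nuclei. With every nucleus thinned to 1000 UMIs, the shares were 35.6% and 24.8% of Col22a1 nuclei and 0.225% and 0.0701% of reference myonuclei. Thinning left 59 and 133 Col22a1 nuclei and 3558 and 4279 reference myonuclei.

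The sequences upstream of these genes were inspected for a pair of motifs, since Ankrd1 is a known target of the stretch-sensitive factors YAP and TEAD. Of 19 genes asked, 15 were in the RefSeq table of start sites on build GRCm38.p6, and Col22a1 was not. The 250 bases upstream held the TEAD motif CATTCC, on either strand, for 3 of the 15 genes (Ankrd1, Nebl and Tigd4), in 3 of their 22 windows. The same letters were in 12.6% of all 32851 windows. The AP-1 motif TGANTCA, on either strand, was found for 1 of 15 genes, Prom1, in 2 of the 22 windows, against 6.75% of all windows. A match is a string of letters only. The windows of the 2 junction markers with a TEAD match, and 1 of Prom1 with an AP-1 match, are shown 5′ to 3′ in the direction of the gene, from 250 bases to 1 base upstream of the start. Capitals mark the motifs, which in Ankrd1 are in the reverse complement.
Ankrd1 (chr19:36119845-36120094, minus strand): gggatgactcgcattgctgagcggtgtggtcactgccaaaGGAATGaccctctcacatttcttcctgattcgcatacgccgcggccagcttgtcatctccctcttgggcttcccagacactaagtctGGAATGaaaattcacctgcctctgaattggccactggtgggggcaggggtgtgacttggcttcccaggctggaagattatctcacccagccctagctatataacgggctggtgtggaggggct
Tigd4 (chr3:84593324-84593573, plus strand): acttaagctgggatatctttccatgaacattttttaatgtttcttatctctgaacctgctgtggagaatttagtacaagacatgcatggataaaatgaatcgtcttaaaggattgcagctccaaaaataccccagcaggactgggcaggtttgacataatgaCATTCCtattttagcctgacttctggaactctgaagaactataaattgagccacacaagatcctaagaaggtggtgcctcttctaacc
Prom1 (chr5:44101737-44101986, minus strand): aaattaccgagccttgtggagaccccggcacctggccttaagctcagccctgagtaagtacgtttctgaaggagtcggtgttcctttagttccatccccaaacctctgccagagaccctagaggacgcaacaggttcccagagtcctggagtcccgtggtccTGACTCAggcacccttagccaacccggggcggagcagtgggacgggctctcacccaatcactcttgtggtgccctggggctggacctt
The TEAD matches began 210 and 123 bases upstream of the Ankrd1 start and 88 upstream of that of Tigd4, and the AP-1 match began 88 bases upstream in this Prom1 window.

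The 15 genes furthest higher were taken from those with 20 or more UMIs in each muscle. Kcnh7 (chr2:62693414-63184287, mm10), a voltage-gated potassium channel of the ERG family, was at 2308 CPM against 3.46 in gastrocnemius, or 9.38 (8.94 to 9.85) as a log2 ratio. In plantaris it was at 1233 CPM against 4.22 (log2 ratio 8.19, 7.86 to 8.54). Erbb4 (chr1:68032186-69108059), a receptor tyrosine kinase for neuregulins, was at 2098 CPM against 11.8 (7.48) and at 992 against 10.1 (6.62). The UMIs of Kcnh7 lay in 25 of 60 and 28 of 136 nuclei, with up to 99 in a single nucleus in each muscle.

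Several encode membrane or secreted proteins. Prom1, a glycoprotein of membrane protrusions, was at 91.2 CPM in gastrocnemius from 9 nuclei and at 117 in plantaris from 34, against 2 and 5 UMIs in all reference myonuclei (log2 ratios 9.21, 7.19 to 12.34, and 8.81, 7.53 to 10.47). Thsd7b, which carries thrombospondin repeats, was at 397 CPM against 1.08 (8.52) and at 423 against 0.990 (8.74). Clstn2, a calsyntenin with cadherin repeats, was at 182 against 1.08 (7.40) and at 401 against 2.29 (7.45). Sema3e, a secreted semaphorin that signals through plexin D1, was at 71.4 against 0.769 (6.54) and at 106 against 1.56 (6.08), from 7 and 24 nuclei.

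The remaining genes of the 15 furthest higher were Tigd4 and Slc24a2 (above), Fras1 (below), Nol4, Map3k7cl, Med12l, Nebl and the long noncoding RNAs AC106834.1 and Gm34907. Med12l, a paralogue of a Mediator kinase-module subunit, was among the most widely seen, in 37 of 60 and 77 of 136 nuclei, at 389 CPM against 1.69 and 288 against 4.90. Its gene overlaps 7 others on the opposite strand, and it is not stated whether the counts used strand. Nebl, a nebulin relative of the Z-disc known from heart, rested on 14 and 39 UMIs in 4 and 12 nuclei. AC106834.1 was at 186 and 207 CPM against 0.385 and 0.990.

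Most of the measured basement membrane genes were higher. Of 23 listed genes 9 were measured, with median log2 ratios of 2.48 and 1.88. In both muscles 7 were 2-fold higher and 0 lower, beside 6.15% and 1.54% over all measured genes. The 7 were Lama2, Lamc1, Fras1, Npnt, Hspg2, Col4a1 and Col4a2, and all 7 genes measured above the cut were called there too. Reference levels lay under 20 CPM for Fras1, Npnt and, in gastrocnemius, Col4a2 (19.3), so the Col22a1 nuclei carried these past the minimum. Lama2 was at 8133 CPM against 235 in gastrocnemius (log2 ratio 5.11) and at 6423 against 284 in plantaris (4.50), and was seen in 60 of 60 and 134 of 136 Col22a1 nuclei. Reference myonuclei held a Lama2 UMI in 30.1% and 28.5% of nuclei, and macrophage- or endothelium-marked nuclei in 30.6% and 30.7%.

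The other basement membrane genes higher in both muscles differed widely in size. Lamc1, the gamma chain that pairs with Lama2, was at 456 CPM against 167 (1.45) and at 804 against 219 (1.88). Fras1, an extracellular protein that anchors basement membranes, was at 975 against 2.08 (8.88) and at 737 against 13.2 (5.80). Hspg2, which encodes perlecan, was at 167 against 29.9 and at 241 against 69.5. Npnt, nephronectin, a ligand of integrins, was at 43.6 against 6.92 and at 68.5 against 5.16. Of the measured rest, Nid1 had log2 ratios of 1.42 and 0.71 and Lama4 of 1.09 and 0.23.

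Collagen chains differed in direction and in the nuclei that carried them. Of 43 chains in the table apart from Col22a1, 12 were measured. In both muscles 6 were higher and 1 was lower, beside 6.15% and 1.54% over all measured genes. Col24a1, a fibrillar chain, was at 1158 CPM against 12.8 (6.49) in gastrocnemius and at 631 against 20.4 (4.95) in plantaris, in 48 of 60 and 90 of 136 nuclei. The basement membrane chains Col4a1, Col4a2 and Col4a5 had log2 ratios between 1.66 and 2.64. Col1a2 and Col6a3, chains made by fibroblasts, were at 31.7 and 39.7 CPM in gastrocnemius and 106 and 98.5 in plantaris. Above the cut Col6a3 was at 16.4 and 57.5 CPM, against 14.8 and 36.0 in reference myonuclei. Col19a1 was lower, at 15.9 against 49.4 and 18.6 against 48.7.

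The integrin list also holds integrin-like and integrin-binding genes, among them Itgbl1 and Itgb1bp2. It had 4 of 8 measured members higher and 0 lower, beside 6.15% and 1.54% over all measured genes. The 4 were Itgb1, Itga7, Itgav and the integrin-like Itgbl1, and the list had median log2 ratios of 1.21 and 0.99. Itgb1, the shared beta 1 chain, was at 397 CPM against 97.6 (2.02) and at 538 against 103 (2.38). Itga7, its laminin-binding partner in muscle, was at 47.6 against 12.2 (1.97) and at 71.4 against 19.3 (1.89). Itgav was at 139 against 47.2 and at 99.9 against 42.1. These 3 were also called above the cut, where 7 integrin genes were measured with median log2 ratios of 0.91 and 0.39. The plantaris median was 0.31 with 10 or more Myh UMIs required.

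The links between membrane and cytoskeleton were closer to the reference. Of 20 measured adhesion linkers 3 were higher and 0 lower, beside 6.15% and 1.54% over all measured genes. Their median log2 ratios were 0.43 and 0.28. Xirp2, an actin-binding protein of the intercalated disc and the junction, was at 3922 CPM against 1031 (1.93) and at 1971 against 833 (1.24), with up to 190 UMIs in a single nucleus. Sorbs2, a vinculin-binding adaptor, was at 2522 against 1040.2 and at 1763 against 614. Parva, a parvin of integrin adhesions, had log2 ratios of 1.13 and 1.11 and was not called in the nuclei above the cut. Among 17 measured dystrophin complex genes was Sgcd, the delta sarcoglycan, which was higher at 3252 against 1005 and 2959 against 1236. Dmd itself had log2 ratios of 0.53 and 0.44.

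Matrix proteases and their inhibitors had 5 of 13 measured genes higher and 1 lower, beside 6.15% and 1.54% over all measured genes. Adamts20 is given above, and Adamts3, at 35.7 CPM against 12.8 and 44.3 against 11.8, was not called in the nuclei above the cut. Adamts6 was at 83.3 CPM against 26.6 and at 108 against 35.0, and the inhibitor Timp3 at 111 against 37.5 and 81.4 against 27.8. Adam19 was at 39.7 against 7.69 and at 95.6 against 17.4, and was seen in 31.3% and 36.3% of macrophage- or endothelium-marked nuclei. Adamtsl1, a protease-like protein with no catalytic domain, was lower at 79.3 against 180 and 124 against 368.

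Among TGF-beta and BMP genes 3 of 20 measured were higher and 1 lower, beside 6.15% and 1.54% over all measured genes. Ltbp1, which stores latent TGF-beta in the matrix, was at 631 CPM against 27.6 (4.51) in gastrocnemius and at 494 against 44.1 (3.49) in plantaris. The ligand Tgfb2 was at 278 against 85.6 and at 197 against 64.4. Smad1, which carries BMP signals, was at 63.4 against 26.7 and at 138 against 38.9. The BMP receptor Bmpr1b was the lower gene, at 39.7 against 283 and 104 against 347.

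Other signalling lists gave a few members each, beside 6.15% higher and 1.54% lower over all measured genes. Of 18 measured FGF, EGF and IGF genes 6 were higher, namely Erbb4, Fgf14, Fgf7, Nrg4, Egfr and Vegfd. Fgf7 was at 147 CPM against 2.46 (5.90) and at 92.8 against 3.70 (4.65), and Nrg4, a ligand of Erbb4, at 75.3 against 8.08 (3.22) and 40.0 against 3.07 (3.70). Fgf14 rested on 3 and 9 nuclei. Egfr was not called above the cut, where its log2 ratios were 0.39 and 0.46, and was seen in 44.8% and 53.6% of macrophage- or endothelium-marked nuclei. Of 6 measured Notch genes 2 were higher, Maml2 and its paralogue Maml3, the latter at 1011 against 283 and 1026 against 302. Of 11 guidance genes 2 were higher, Sema3e and the ephrin receptor Epha4, at 55.5 against 2.08 and 38.5 against 5.73. Of 10 Wnt genes Lrp5, Wnt5b and Ror1 were higher, and Ror1 stood below the reference without nuclei that held connective tissue markers. Reference levels lay under 20 CPM for Erbb4, Fgf14, Fgf7, Nrg4, Sema3e, Epha4 and, in gastrocnemius, Lrp5. The Col22a1 nuclei thus carried these past the minimum, and their calls were partly fixed in advance.

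The list of YAP and stretch genes had 0 of 11 measured members higher and 1 lower, beside 6.15% and 1.54% over all genes, with median log2 ratios of -0.064 and 0.044. Ankrd1 is also on this list but was not counted, since it lay below the minimum for a measured gene in plantaris. It stood at 75.3 CPM against 0.0769 in gastrocnemius and at 34.3 against 0.156 in plantaris. Yap1 had log2 ratios of 1.22 and 0.60. Ankrd2, a stretch-regulated relative of Ankrd1, was the lower gene, from 7 UMIs that all lay in 1 gastrocnemius nucleus and 8 UMIs in plantaris. Its direction turned when both classes were limited to nuclei led by Myh4.

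Contractile genes stood slightly below a reference that was itself chosen by its Myh UMIs. Of 21 measured adult sarcomere genes 0 passed 2-fold in both muscles, and their median log2 ratios were -0.33 and -0.25. Above the cut 22 were measured, with medians of -0.30 in gastrocnemius and -0.15 in plantaris. The Col22a1 nuclei were not restricted on Myh UMIs, so lower levels of contractile genes in them may be partly fixed in advance. Ttn, which encodes titin, had log2 ratios of -0.33 and -0.33. Of 20 genes of sarcomere building and repair 4 were 2-fold higher and 0 lower, beside 6.15% and 1.54% over all genes, and the difference between the 2 lists was not tested. Lmod2, which elongates thin filaments, was at 91.2 CPM against 22.1 and at 184 against 63.2. Klhl41, a sarcomere stability factor, was at 119 against 39.8 and at 121 against 41.6. Enah, an actin regulator, was at 234 against 80.6 and at 314 against 86.4, and the chaperone Cryab at 39.7 against 7.77 and 171 against 59.3.

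Metabolic lists gave counts near the 6.15% higher and 1.54% lower over all genes. Of 21 glycolysis genes 0 were higher and 1 lower, Pfkfb3, which makes an activator of glycolysis, at 178 CPM against 692 (-1.95) and 254 against 615 (-1.28). Of 10 oxidative regulators 0 were higher and 1 lower, Ppargc1a, the coactivator PGC-1 alpha, at 269.6 against 578 (-1.10) and 451 against 1231 (-1.45). Calcium handling had 2 of 19 higher, Camk2d, at 785 against 324 and 1109 against 277, and Atp2a2, the calcium pump of slow fibres. Of the 31 Atp2a2 UMIs in gastrocnemius 19 lay in 1 nucleus, and without it the log2 ratio was 0.32.

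The lists of the synapse, of denervated muscle and of muscle transcription factors gave small counts, read beside 6.15% higher and 1.54% lower over all genes. Of 3 measured neuromuscular junction genes 0 were called. Of 8 measured denervation genes 2 were higher, Runx1 at 75.3 CPM against 11.5 and 87.1 against 16.98, and Hdac9 at 472 against 131 and 639.5 against 219. Both are also abundant outside fibres, with UMIs in 41.8% and 55.8% of macrophage- or endothelium-marked nuclei for Runx1 and 44.0% and 57.7% for Hdac9. Of 25 measured muscle transcription factors 2 were higher, Ebf1 and Nfatc2, and above the cut Nfatc2 alone was. Nfatc2, a calcineurin-dependent factor, was at 119 against 46.5 and at 228 against 81.7.

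The 10 genes furthest lower were Gramd1b, Alpk2, Arpp21, Agbl1, Malt1, Gm26885, Kcnn2, Adhfe1, Bmpr1b and 0610040J01Rik. Agbl1 (chr7:76229887-77124698) had the most UMIs of these in both classes, at 508 CPM against 2018 (log2 ratio -1.99, interval -2.25 to -1.74) and at 1803 against 7007 (-1.96, -2.04 to -1.88). Alpk2, an alpha-type protein kinase of muscle, was at 51.6 against 281 (-2.45) and at 98.5 against 449 (-2.19). Kcnn2, a calcium-activated potassium channel, was at 67.4 against 238 and at 94.2 against 334. Malt1, a paracaspase, was at 15.9 against 60.9 and at 18.6 against 143. Adhfe1, a mitochondrial enzyme, was at 11.9 against 59.1, from 3 UMIs (log2 ratio -2.31, -4.59 to -0.76), and at 32.8 against 113.

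Gramd1b, a carrier of cholesterol between membranes, was the furthest lower of these by its smaller difference, at 3.97 CPM against 44.7 in gastrocnemius, from 1 UMI (log2 ratio -3.49, -8.80 to -1.01), and at 12.8 against 105 in plantaris, from 9 UMIs. Nuclei marked by genes of the neuromuscular junction, of which 27 of 33 and 43 of 61 held 10 or more Myh UMIs, held 2359 and 1817 CPM of it. Arpp21 was higher in those nuclei too, at 139 and 239 CPM, against 49.9 and 115 in reference myonuclei and 11.9 (3 UMIs, log2 ratio -2.07, -4.35 to -0.52) and 21.4 in Col22a1 nuclei. The part of these nuclei in both differences was not tested. Agbl1 was below its reference level in the neuromuscular-marked nuclei as well, at 499.6 and 1879 CPM.

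In single nuclei above the cut, some genes were common and others rare. Lama2 ranged from 3 to 157 UMIs in gastrocnemius, with a median of 27, and from 0 to 164 in plantaris, with a median of 24. Maml2 had a median of 4 UMIs in each muscle, with up to 21 and 29. Col24a1 had medians of 4 and 2 UMIs, with up to 26 in each muscle. These 3 genes were present in most of the nuclei. Fras1 and Med12l had a median of 1 UMI, and Kcnh7 a median of 0 with up to 99.

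The Col22a1 nuclei differed among themselves. Within the 177 nuclei above the cut, 52 held Kcnh7 and 69 held Slc24a2, and 33 held both. Kcnh7 went most with Erbb4, with a Spearman rho of 0.60 of CPM across nuclei, and little with Clstn2 (-0.04) or Tigd4 (-0.03). Slc24a2 went with Thsd7b (0.57) and Clstn2 with Thsd7b (0.54) and Prom1 (0.51). These nuclei share 2 libraries and differ in depth, and the coefficients are descriptions.

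A split made after these values were seen separated the nuclei by 3 or more UMIs of Kcnh7 and by 3 or more summed over Slc24a2, Thsd7b and Clstn2. In gastrocnemius 6 nuclei had Kcnh7 alone, 16 had both, 9 had the other genes alone and 25 had neither. In plantaris the numbers were 11, 14, 28 and 68. Median depths were 3251 to 4143 UMIs in gastrocnemius and 3997.5 to 4077.5 in plantaris. Median Col22a1 counts were 8, 7.5, 7 and 5 UMIs in the order given for gastrocnemius and 8, 12.5, 6 and 5 for plantaris, and nuclei with neither group had the lowest median.

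The groups differed in genes that did not define them. Fras1 stood at 2331 and 3349 CPM in nuclei with both and at 212 and 351 in nuclei with neither. Adamts20 stood at 946 and 992 CPM in nuclei with the Slc24a2 group alone, against 524 and 359.96 with Kcnh7 alone and 139 and 181 with neither. Lama2 was high in all groups, from 5631 to 12940 CPM in gastrocnemius and from 4845 to 9977 in plantaris. Erbb4 stood at 5290 and 5223 CPM in nuclei with both and at 277 and 189 with neither.

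Myosin transcripts were lowest where the Slc24a2 group stood alone. Those nuclei held 4.78 Myh UMIs each in gastrocnemius and 9.96 in plantaris, against 20.5 and 20.04 in nuclei with neither group. Myh4, the heavy chain of the fastest fibres, was at 1282 and 1197 CPM there, against 3887 and 2113. Of them 3 of 9 and 11 of 28 had a leading Myh gene from 3 or more Myh UMIs, against 24 of 25 and 65 of 68 with neither. With all Col22a1 nuclei together, Myh4 was at 3295 CPM against 4641 in gastrocnemius and 1892 against 3109 in plantaris, where the reference held 10 or more Myh UMIs by its rule.

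**Figure D4:**
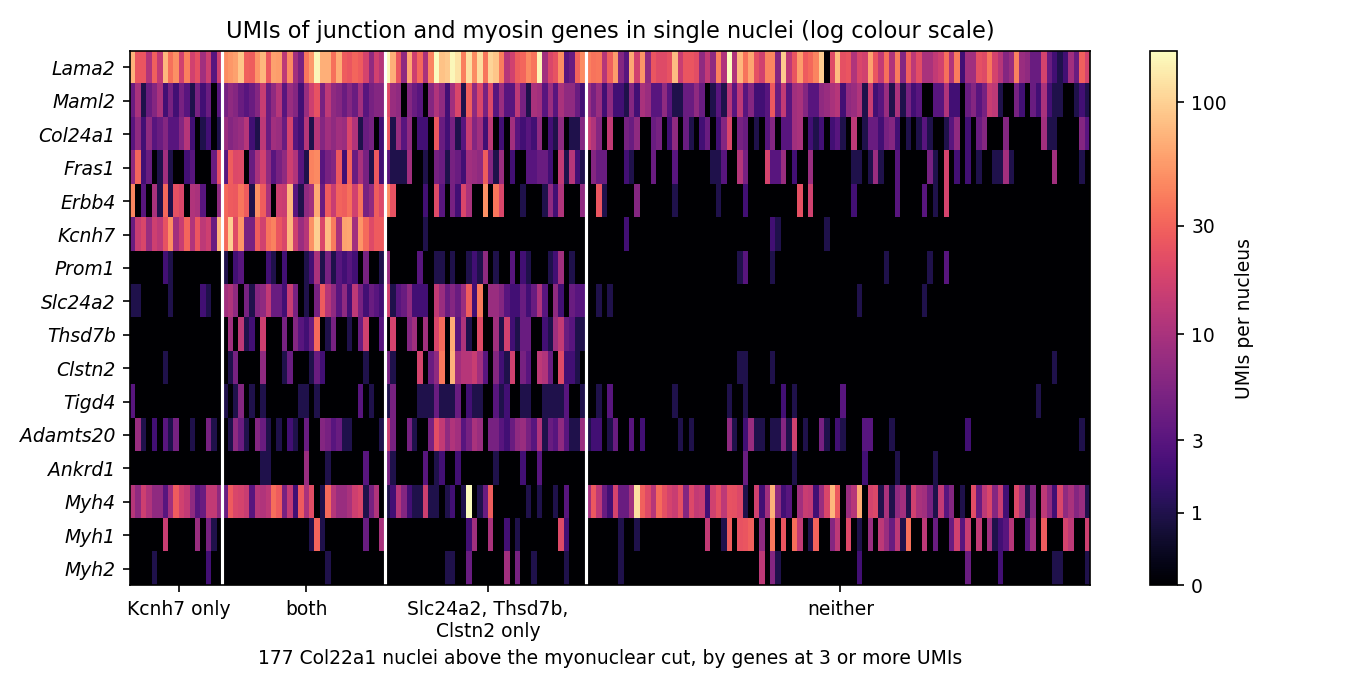
UMIs (log colour scale) of 16 genes, in rows, in the 177 Col22a1 nuclei above the myonuclear cut, in columns, grouped by 3 or more UMIs of Kcnh7 and of Slc24a2, Thsd7b and Clstn2 summed. Lama2 is bright across all groups, Fras1 is dim in the nuclei with neither (212 and 351 CPM), and Myh4 is dim in the nuclei with the Slc24a2 group alone (1282 and 1197 CPM).

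The fibre type of the Col22a1 nuclei could be read where a nucleus had 3 or more Myh UMIs and 1 leading gene. In gastrocnemius Myh4 led in 48 of 49 such nuclei, 97.96% (89.1 to 99.9), against 93.6% (92.7 to 94.4) of reference myonuclei. In plantaris Myh4 led in 69 of 108, 63.9% (54.1 to 72.9), against 77.1% (75.8 to 78.4). Myh1, of type 2X fibres, led in 34 of 108, 31.5% (22.9 to 41.1), against 12.8% (11.8 to 13.8), and Myh2, of type 2A fibres, in 3, 2.78% (0.577 to 7.90), against 10.1% (9.18 to 11.01). Myh7 led in 2, 1.85% (0.225 to 6.53), against 1 of 4263 reference myonuclei, 0.0235% (0.000594 to 0.131). Both of these Col22a1 nuclei held 4 Myh UMIs in all, fewer than the 10 required of the reference. Among plantaris Col22a1 nuclei above the myonuclear cut, Myh4 led in 61 of 100 and Myh1 in 34. In plantaris the intervals for Myh1, Myh2, Myh4 and Myh7 do not overlap between the classes, but they count nuclei of 1 library and cover counting error only. The reference was restricted on Myh UMIs and the Col22a1 nuclei were not, of which 36 of 60 and 72 of 136 held 10 or more.

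The junction genes were set beside those of neuromuscular-marked nuclei, the other known special nuclei of the fibre. These were chosen by 3 or more UMIs of Chrne, Etv4, Ufsp1, Colq and Chrnd, a myonuclear share above the cut and under 3 Col22a1 UMIs. They numbered 33 and 61, and the median nucleus held 4029 and 4567 UMIs. Lama2 was high in them as well, at 5364 and 4928 CPM, against 8127 and 6833 in Col22a1 nuclei above the cut. Kcnh7, Prom1, Tigd4 and Clstn2 had 0 UMIs in them in both muscles, where a count of 0 allows up to 3. Col24a1 was at 0 and 55.6 CPM, against 1171 and 675. Of these nuclei, limited in advance to under 3 Col22a1 UMIs, 0 and 1 held a Col22a1 UMI.

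Tenocyte-marked nuclei, with 3 or more UMIs of Tnmd, Scx, Mkx, Thbs4, Fmod, Comp and Kera, a myonuclear share below the cut and under 3 Col22a1 UMIs, numbered 19 and 80, at median depths of 1274 and 2136.5 UMIs. They held Col22a1 at 239 and 40.7 CPM, from 7 and 12 UMIs. Col24a1 stood at 478 and 88.2 CPM in them and Lama2 at 2494 and 1738. Maml2 stood at 2289 and 954 CPM, against 1199.7 and 1107 in Col22a1 nuclei above the cut, so in gastrocnemius it was higher in the tenocyte-marked nuclei. Kcnh7, Thsd7b and Prom1 had 0 UMIs in them in both muscles.

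**Figure D5:**
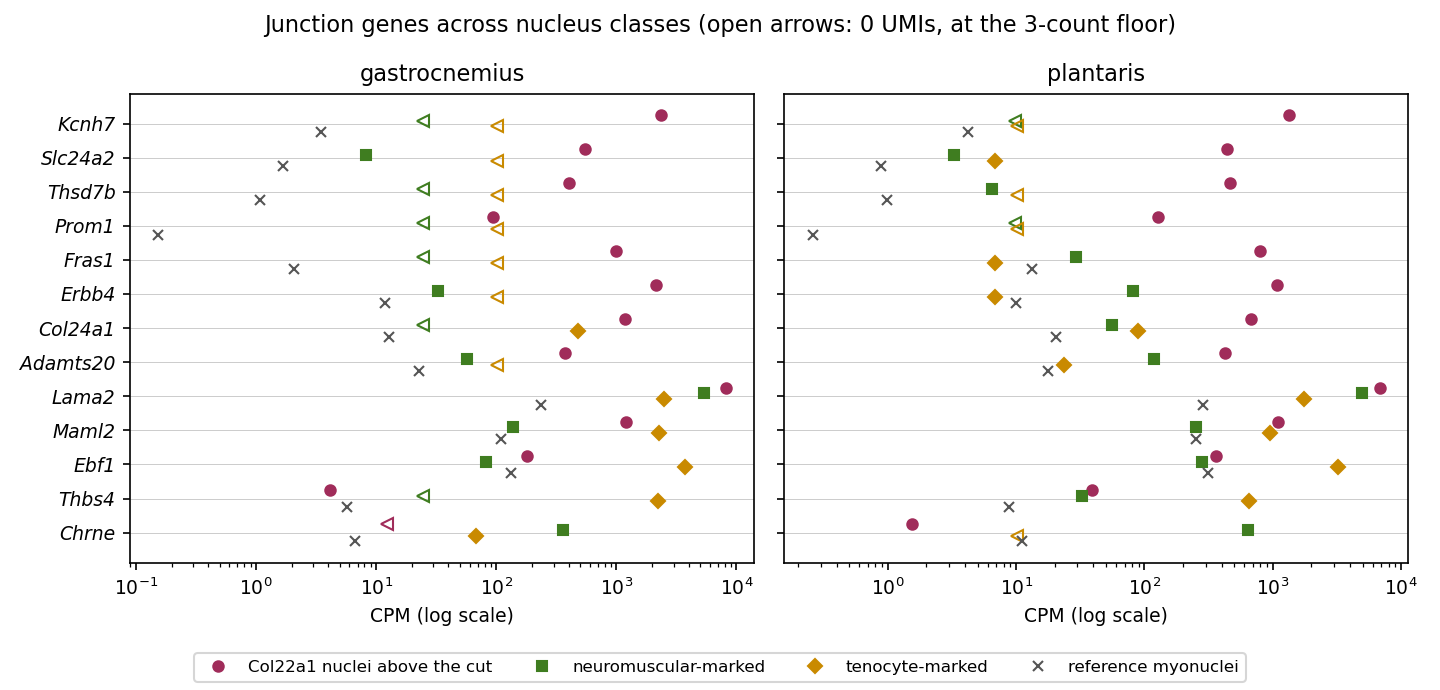
Level (CPM, log scale) of 13 genes in Col22a1 nuclei above the myonuclear cut, neuromuscular-marked, tenocyte-marked and reference nuclei of each muscle, with open arrows at the 3-count floor where no UMI was seen. Lama2 is high in Col22a1 and neuromuscular-marked nuclei (8127 and 5364 CPM in gastrocnemius), while Kcnh7 has 0 UMIs in the latter. Chrne helped to define the neuromuscular-marked class and Thbs4 the tenocyte-marked class.

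A definition without Col22a1 found few nuclei outside the set and missed most of those within it. Nuclei with 3 or more UMIs summed over Slc24a2, Tigd4 and Ankrd1 numbered 27 in gastrocnemius and 43 in plantaris. Of these 23 and 37 were Col22a1 nuclei, 85.2% (66.3 to 95.8) and 86.0% (72.1 to 94.7), and 4 and 4 held 0 Col22a1 UMIs. They covered 23 of the 60 and 37 of the 136 Col22a1 nuclei. Slc24a2, Tigd4 and Ankrd1 are the junction markers with the fewest reference UMIs, from 0 for Tigd4 to 22 for Slc24a2, both in gastrocnemius. Adamts20, Maml2 and Itgbl1, which were left out, had 119 or more in each muscle. The low number of nuclei outside the set was thus partly fixed by the choice of genes.

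Between the muscles, 5242 genes were measured in the Col22a1 nuclei. Of these 657 (12.5%) were 2-fold higher in plantaris and 211 (4.03%) in gastrocnemius, around a median log2 ratio of 0.11. With the whole interval past 2-fold the counts were 57 (1.09%) and 24 (0.458%). Reference myonuclei differed 2-fold in the same direction for 255 of the 868 genes. Of the 6 junction markers, Ankrd1 (log2 ratio of plantaris over gastrocnemius -1.14) and Itgbl1 (1.88) were 2-fold apart, and the other 4 lay between -0.86 for Tigd4 and 0.12 for Adamts20. Of the 19 gastrocnemius Ankrd1 UMIs 8 lay in a single nucleus, and without the highest nuclei its ratio was -0.63, within 2-fold. The Itgbl1 ratio rested on 12 gastrocnemius UMIs in 3 nuclei, and Itgbl1 stood far higher below the myonuclear cut than above it.

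Of the 6 genes named as higher in plantaris, the one seen in the most nuclei was Fam155a, a partner of the sodium leak channel, at 732 CPM against 7.93 (log2 ratio 6.53, 4.67 to 9.58), from 28 nuclei against 1. It also differed in reference myonuclei, by 4.03. Gpc6, a cell surface heparan sulphate carrier, was at 196 CPM against 11.9, from 3 gastrocnemius UMIs (4.04, 2.46 to 6.33), in 21 plantaris nuclei. Ntm, a neuronal adhesion protein, was at 243 against 7.93, from 2 (4.94, 3.06 to 7.99), in 20. Nrg3, a ligand of Erbb4, was at 109.9 against 3.97, from 1 (4.79, 2.27 to 10.11), in 8.

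Several of the other named differences rested on few nuclei. Of 744 Kcnip4 UMIs in plantaris 510 lay in 1 nucleus and the rest in 5 others, and the log2 ratio of 7.07 became 4.79 without the highest nuclei. Of 150 Nrxn3 UMIs 142 lay in 1 nucleus, and 4.17 became -0.069. In gastrocnemius 97 of 106 Dkk2 UMIs lay in 1 nucleus. Sorcs1 (182 CPM against 9.99), Mical2 (186 against 28.6) and Actr3b (278 against 52.8) were higher in gastrocnemius, and reference myonuclei differed the same way, by -5.63, -2.97 and -1.63. Mical2 was seen in 17 and 14 Col22a1 nuclei and Actr3b in 16 and 18, while Sorcs1 was seen in 3 and 4. Kcnj3, an inward rectifier potassium channel, was at 159 CPM against 14.3 (-3.47), from 8 and 4 nuclei, while in reference myonuclei it was higher in plantaris (1.90).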

How the data were processed

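Per the labels, sorted nuclei went into 10x Chromium 3′ v3.1 libraries. The submitters' processing notes name Cell Ranger 6.0.1 and the build mm10. Annotation, strand, intron counting and the calling of nuclei were not stated. The authors deposited whole-number UMI counts for 32285 genes in 16530 nuclei, with a table of the library of each barcode. Libraries held 19048595 and 29248275 UMIs, and no nucleus fewer than 500.

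Within each library, a class's nuclei were added up and scaled to CPM of that sum. A gene was measured where the mean CPM of Col22a1 and reference nuclei, each weighted equally, was 20 or more in both libraries, leaving out Col22a1 and the 4 Myh genes. Between muscles, the same minimum was set on the 2 libraries. A call needed 2-fold in the same direction in both muscles. Intervals are 95%, exact Clopper-Pearson (shares), exact Poisson (CPM) and exact conditional binomial (ratios). A count of 0 was set to 3 counts per class and library. No doublet caller was run and no nucleus was left out. Calling was tested on simulated data.

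Members and lists were chosen with earlier results of these data known. Named genes were the 15 furthest higher and 10 furthest lower by the smaller of the 2 muscles' differences, with 20 or more UMIs in each library, 6 in each direction between muscles, the junction markers, and up to 6 called genes per list, of which some are not reported here. The 4 genes nearest to Col22a1 across classes were not named. Positions are from GENCODE M21, which holds 31424 of the gene names. Python 3.11.15, numpy 2.4.6, scipy 1.17.1, pandas 2.3.3 and matplotlib 3.10.9 were used.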

Additional observations from a re-analysis of the deposited data

Results flagged for a closer look

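Dkk2, a secreted modulator of Wnt signals, and Gpc6 lay more than 2-fold from reference myonuclei in opposite directions in the 2 muscles. Dkk2 had a log2 ratio of 3.91 in gastrocnemius and -1.67 (-4.72 to 0.21) in plantaris, with 106 and 2 UMIs. Of the 106, 97 lay in 1 nucleus, and without it the gastrocnemius ratio was 0.50. Gpc6 had log2 ratios of -1.13 (3 UMIs, -3.41 to 0.43) and 1.42 (137 UMIs, 41 of them in 1 nucleus). The difference between the muscles was not tested for either gene.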

How the results depend on the processing

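No paired analysis was possible because each muscle is 1 library and no label ties it to an animal. The share of Col22a1 nuclei, 0.814% in gastrocnemius and 1.49% in plantaris, was 1.08% and 1.91% from 2 UMIs, 0.529% and 1.005% from 5, 0.488% and 0.786% with 10 or more Myh UMIs required, and 0.318% and 0.581% at 1000 UMIs per nucleus. The 283 higher and 71 lower genes became 188 and 44 with 10 or more Myh UMIs required of the Col22a1 nuclei. At a minimum of 5 CPM they became 555 and 165, and at 50 CPM 155 and 37. The lower genes became 140 after thinning, 131 without nuclei holding 2 or more connective tissue marker UMIs, 128 with each nucleus's own CPM averaged, and 123 without nuclei over 15000 UMIs. The 868 genes apart between muscles became 1630 after thinning, 2399 at 5 CPM and 272 at 50 CPM. Fewer or more genes tested sets the counts at 5 and 50 CPM, and the cause of the other changes was not tested.

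Without nuclei holding connective tissue markers, the direction turned for the second junction set and Ebf1 in gastrocnemius (both -1.37), for Col6a3 (-0.36 and -0.89) and Ror1 (-0.80 and -0.040) in both muscles, for Parva in gastrocnemius (-0.47), and for Col1a2 (-0.57) and Adamts3 (-0.028) in plantaris. Col1a2 was at -0.12 in gastrocnemius from 5 Col22a1 UMIs. Ankrd2 was at 0.050 in gastrocnemius against a reference matched in Myh composition, and at 1.22 and 0.86 in nuclei led by Myh4. Nrxn3 between muscles was at -0.069 without its highest nucleus. The 15 genes named as furthest higher stayed 2-fold higher in both muscles under all 14 settings of nuclei, scaling and filters. The 10 lower ones stayed 2-fold lower except after thinning (8) and in nuclei led by Myh4 (9). Both groups were picked as furthest apart in these same nuclei, so for the 15 staying past 2-fold was largely fixed in advance. The settings on the myonuclear cut, nuclei over 15000 UMIs, Myh4 lead and the highest nucleus were chosen after seeing the data. Low counts limit genes with under 20 UMIs in a muscle.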
